A study of Mus musculus with 6 samples.

Results

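The genes described here are 30 genes of ribosome biogenesis, the production of ribosomes in the nucleolus, taken from a fixed list of symbols that holds 29 nucleolar factors and the transcription factor Myc. All 30 were present among the 22481 symbols of the liver expression table. The study measured RNA in livers of male C57BL/6J mice, an inbred laboratory strain, aged 10 weeks. Livers came from mice fasted for 16 h (3 libraries) and from mice with free access to food (3 libraries), with no other allele or agent named in either group. Total RNA was sequenced after removal of ribosomal RNA, so the ribosomal RNA itself was not measured and only transcripts of the factors that make it were. Nothing in the labels tells if every library stands for a separate mouse, and p-values therefore reflect only how much these libraries vary.

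Ribosome biogenesis starts when RNA polymerase I copies the ribosomal DNA into a long precursor. Small nucleolar ribonucleoproteins, complexes of guide RNAs (snoRNAs) and core proteins, then methylate and pseudouridylate that precursor, while assembly factors fold and cut it and add ribosomal proteins until the small and the large subunit leave the nucleus. The process is among the most costly of a growing cell, and in mammals it is stimulated by nutrients through mTORC1 and by Myc, which binds the E-box CACGTG in promoters of many of these genes. In liver, feeding and fasting are known to alter ribosome content.

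As these genes are textbook targets of Myc, their promoters were searched for CACGTG, which reads the same on both strands and was the only motif searched. RefSeq promoter windows (build GRCm38.p6, 250 bases before to 50 bases after the start) were matched by symbol for 25 of the 30 genes, all but Fbl, Npm1, Rrp12, Bop1 and Myc. CACGTG was present in at least 1 window of 7 of these 25 genes (28%), against 11.8% of the 8772 tested genes with a window and 8.09% of the 27025 genes of the whole promoter table. A match is a description of these letters and not a measured site. The 7 genes are shown with up to 12 bases on either side, 5′ to 3′ on the strand of the gene, the motif in capitals, and Rrn3 with both of its copies:
Mybbp1a: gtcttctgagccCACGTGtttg
Nop2: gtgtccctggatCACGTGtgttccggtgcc
Pes1: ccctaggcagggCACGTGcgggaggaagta
Rrn3: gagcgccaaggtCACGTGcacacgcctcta
Rrn3: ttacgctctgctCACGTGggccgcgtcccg
Tsr1: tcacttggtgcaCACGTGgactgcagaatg
Utp20: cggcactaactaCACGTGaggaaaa
Wdr43: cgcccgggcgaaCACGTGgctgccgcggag
Counted from the start as base 1, with no base 0, the first letter of the motif lay at 3 in Pes1, 18 in Wdr43, 25 in Tsr1, 38 in Utp20 and 41 in Mybbp1a, and before the start at -60 in Nop2 and at -48 and -215 in Rrn3. Of the 5 genes with the lowest p between fasted and fed livers (Npm1, Ncl, Wdr43, Wdr12 and Bop1), 3 have a window. Whole windows are given for Ncl (chr1:86359406-86359705, minus strand), Wdr43 (chr17:71615965-71616264, plus strand) and Wdr12 (chr1:60098451-60098750, minus strand, the window nearest to the annotated gene start), with CACGTG in capitals:
Ncl: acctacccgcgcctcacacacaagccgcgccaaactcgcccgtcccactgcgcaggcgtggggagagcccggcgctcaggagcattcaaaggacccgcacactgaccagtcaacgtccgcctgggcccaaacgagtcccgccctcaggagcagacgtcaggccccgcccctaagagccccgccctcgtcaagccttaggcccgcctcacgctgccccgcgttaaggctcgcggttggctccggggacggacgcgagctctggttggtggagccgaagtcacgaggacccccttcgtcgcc
Wdr43: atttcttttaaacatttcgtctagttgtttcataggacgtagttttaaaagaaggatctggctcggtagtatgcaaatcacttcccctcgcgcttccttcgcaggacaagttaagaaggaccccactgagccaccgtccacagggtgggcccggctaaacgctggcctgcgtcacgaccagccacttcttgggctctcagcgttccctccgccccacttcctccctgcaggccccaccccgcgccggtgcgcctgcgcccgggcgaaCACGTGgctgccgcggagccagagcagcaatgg
Wdr12: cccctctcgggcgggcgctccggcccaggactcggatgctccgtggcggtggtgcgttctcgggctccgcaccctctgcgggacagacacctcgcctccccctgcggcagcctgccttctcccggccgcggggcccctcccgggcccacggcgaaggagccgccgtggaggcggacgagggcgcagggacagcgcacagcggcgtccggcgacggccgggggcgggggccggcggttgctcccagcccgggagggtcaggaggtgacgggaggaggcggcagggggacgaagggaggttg
The windows were 69.3% G and C in Ncl, 59.7% in Wdr43 and 78% in Wdr12, and CACGTG occurred in that of Wdr43 alone of these. Among the 7 genes with the motif the estimated log2 fold change of fasted over fed livers ran from -0.37 in Tsr1 to 0.53 in Wdr43.

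The counts used here summed to between 11158002 and 11639389 in the fasted libraries and between 12289650 and 14771821 in the fed libraries. CPM, the unit of the levels below, scale counts to a common library size with TMM factors, and 3 counts corresponded to 0.26 to 0.291 CPM in fasted and 0.186 to 0.252 CPM in fed libraries. Each of the 30 genes had between 27 and 2484 counts in every library, so none rested on a value near that floor. The fed libraries differed in genes outside the list: for 18 acute phase genes, which encode mostly plasma proteins of inflammation, log2 CPM averaged 11.99, 12.09 and 11.11 in fasted libraries 1, 2 and 3 and 9.86, 12.44 and 13.45 in fed libraries 1, 2 and 3. The 5 bile duct markers summed to 20.1, 30.1 and 13.7 CPM in fasted libraries 1, 2 and 3 and to 34.2, 129 and 542 CPM in fed libraries 1, 2 and 3. Nearly all of this came from Spp1 and Sox9, while Krt7, Krt19 and Epcam had 0 to 14 counts in every library. The 8 hepatocyte markers summed to 109000, 103000 and 96300 CPM in fasted libraries 1, 2 and 3 and to 72700, 22300 and 51700 CPM in fed libraries 1, 2 and 3, where Alb was listed at 0 in fed library 2, a doubtful value. Kupffer cell markers summed to 417 to 624 CPM in fasted and 423 to 563 CPM in fed libraries, sinusoidal endothelial markers to 190 to 246 and 208 to 281 CPM, stellate cell markers to 181 to 262 and 181 to 219 CPM, and leukocyte markers to 92.4 to 169 and 142 to 237 CPM. The 14 proliferation genes summed to 53.4, 64.1 and 31.6 CPM in fasted libraries 1, 2 and 3 and to 50.5, 145 and 47.4 CPM in fed libraries 1, 2 and 3. In bulk liver, fewer cells of a type and less RNA per cell cannot be told apart.

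The comparison asked whether transcripts of ribosome production differ in liver after a 16 h fast. None of the 30 genes passed the test in either direction (edgeR's quasi-likelihood test, adjusted p over 11633 genes under 0.05), where 2.52% of all tested genes passed (1.41% higher and 1.11% lower in fasted livers). The lowest adjusted p were those of Npm1 (0.0938) and Ncl (0.0948), a nucleolar chaperone and a nucleolar RNA-binding protein, both with higher values in each fasted library than in any fed library. Npm1, Ncl and Wdr43, 3 of the 30 genes, had an unadjusted p under 0.05, all with higher estimates in fasted livers, beside 21.8% of all tested genes (11.0% higher and 10.8% lower). With DESeq2 2 of the 30 genes passed, Ncl and Npm1, both higher, where 8.33% of all genes passed and 4.4% were higher. In settings that called none of the 30, the share of all genes called was 2.85% with upper-quartile factors, 1.92% with no filter on low counts, 2.68% with robust empirical Bayes, 2.53% on the deposited counts, 1.04% with limma on FPKM at either pseudocount, 0.255% there with no filter and 0.249% with a replicate block. It was 0.277%, 0.0253% and 0.252% without fasted library 1, 2 or 3, and 4.21% and 0.111% without fed library 1 or 2. The 30 genes spread around no change, with 14 estimates above 0 and 16 below, a median log2 fold change of -0.02 and a middle range of -0.25 to 0.16 between quartiles. The corresponding values over all tested genes were -0.02 and -0.33 to 0.27.

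A p that misses the threshold does not show that levels were alike. No estimate reached 2-fold, against 9.22% of all tested genes. For 26 of the 30 genes the 95% interval, computed from edgeR's F statistic, lay wholly within 2-fold either way. It did so for 58.7% of all tested genes. The exceptions were Npm1 (upper bound 1.07 on the log2 scale), Tsr1 (lower bound -1.01), Polr1e (lower bound -1.37) and Myc (-1.45 to 1.15). These intervals are not adjusted for the number of genes. Groups were fully separated in CPM for 9 of the 30 genes, higher in fasted livers for Npm1, Ncl, Wdr43, Rrn3 and Pes1 and lower for Dkc1, Nhp2, Bop1 and Wdr12, beside 29.0% of all tested genes (15.3% higher and 13.7% lower), so that this count is near the background. With 3 against 3 libraries the smallest p of an exact permutation test is 0.1, and none is given.

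**Figure D1:**
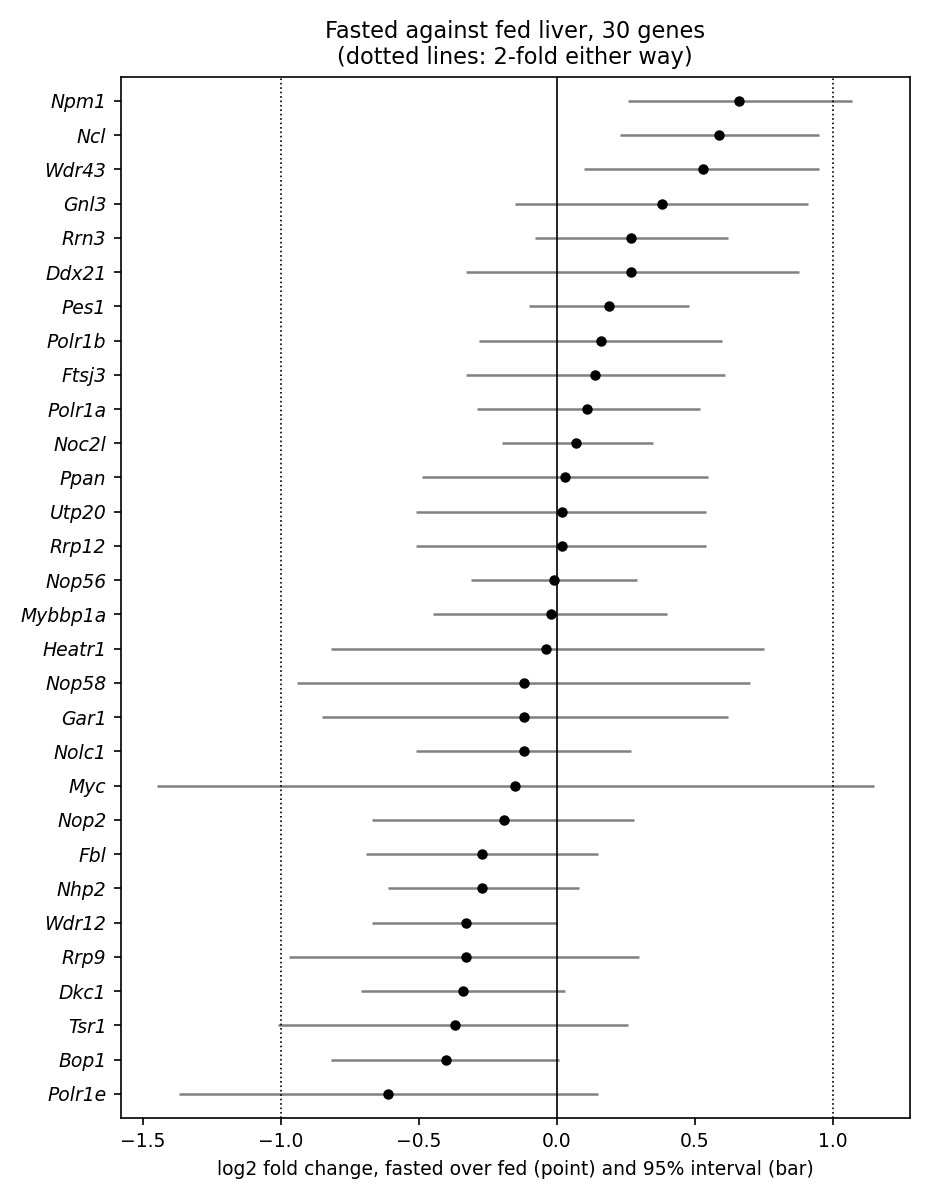
Estimated log2 fold change of fasted over fed livers for the 30 genes (points) with the 95% interval computed from edgeR's F statistic (bars), ordered by size, with dotted lines at 2-fold either way. The intervals of Npm1, Ncl and Wdr43 lie above 0 and those of the 27 other genes include it.

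The highest estimates were those of Npm1 and Ncl, 2 of the 3 nucleolar phosphoproteins. Npm1 encodes nucleophosmin, a histone and ribosome chaperone that shapes the nucleolus. Its transcript was at 93.2, 127 and 120 CPM in fasted libraries 1, 2 and 3 and at 74.1, 62.9 and 77.7 CPM in fed libraries 1, 2 and 3. All fasted values lay above all fed values, with an estimated log2 fold change of 0.66 (SE 0.17, 1.58-fold, edgeR adjusted p = 0.0938). Ncl encodes nucleolin, which binds the ribosomal precursor and the ribosomal DNA. It was at 180, 227 and 194 CPM in fasted libraries 1, 2 and 3 and at 135, 131 and 133 CPM in fed libraries 1, 2 and 3. The fed values lay within a few CPM of each other while the fasted values spread more widely, and the estimated log2 fold change was 0.59 (SE 0.16, 1.51-fold, edgeR adjusted p = 0.0948). DESeq2 gave adjusted p of 0.0207 for Npm1 and 0.00581 for Ncl, which passed there. Nolc1, a chaperone that links snoRNPs to nucleolus and Cajal bodies, had overlapping groups and an estimate of -0.12, with means of 20.6 ± 2.44 CPM in fasted and 22.4 ± 3.56 CPM in fed livers (SD, n = 3 each).

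**Figure D2:**
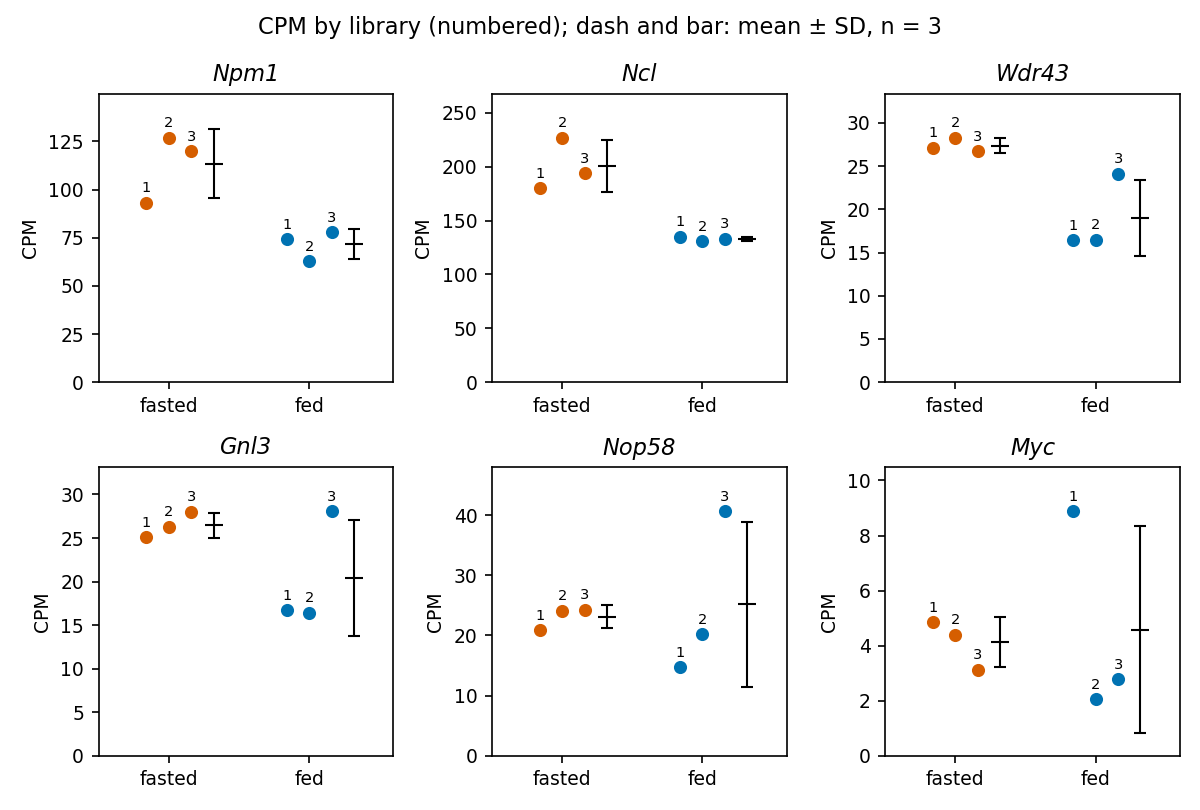
CPM of 6 genes in each library, fasted to the left and fed to the right of each panel, points numbered by library, with the mean and SD (n = 3) beside each group. Npm1, Ncl and Wdr43 do not overlap between groups, fed library 3 stands high for Wdr43, Gnl3 and Nop58, and fed library 1 stands high for Myc at 8.89 CPM.

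None of the 5 RNA polymerase I genes passed, and their estimates ran from -0.61 to 0.27. Rrn3, the factor that brings polymerase I to its promoter, was at 16.3, 14.5 and 17.0 CPM in fasted libraries 1, 2 and 3 and at 11.6, 13.9 and 14.3 CPM in fed libraries 1, 2 and 3. The groups did not overlap, but the lowest fasted and highest fed library were close and the gene did not pass (log2 fold change 0.27, SE 0.15, edgeR adjusted p = 0.346). Polr1a and Polr1b, the subunits that form the catalytic centre, averaged 17.7 ± 2.16 and 12.6 ± 2.11 CPM in fasted livers and 16.4 ± 2.58 and 11.3 ± 1.55 CPM in fed livers (SD, n = 3 each). Polr1e, a subunit that helps initiation, had an estimate of -0.61 (SE 0.33, edgeR adjusted p = 0.323), which was -0.32 without fed library 3. It was at 5.34, 4.02 and 3.37 CPM in fasted libraries 1, 2 and 3 and at 4.44, 6.15 and 8.9 CPM in fed libraries 1, 2 and 3, so that fed library 1 lay among the fasted values. Mybbp1a, a nucleolar Myb-binding protein that represses ribosomal DNA transcription, averaged 38.4 ± 5.02 CPM in fasted and 39.1 ± 7.46 CPM in fed livers (SD, n = 3 each).

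All 6 snoRNP core proteins among the 30 genes had estimates below 0, beside 51.3% of all tested genes, and none passed. Without fed library 3 there were 3 of the 6 below 0, and without fasted library 1 there were 4. In the box H/ACA particles, which guide pseudouridylation, the synthase Dkc1 was at 9.81, 9.33 and 8.05 CPM in fasted libraries 1, 2 and 3 and at 11.5, 10.9 and 12 CPM in fed libraries 1, 2 and 3. Every fasted value lay under every fed value, with an estimated log2 fold change of -0.34 (SE 0.16, edgeR adjusted p = 0.269). Nhp2, which binds the guide RNA, was at 13.4, 14.6 and 12.6 CPM in fasted libraries and at 16.2, 14.7 and 18.1 CPM in fed libraries 1, 2 and 3, where the groups all but touched (adjusted p = 0.337). Gar1, the smallest in counts of the 30 genes, averaged 3.58 ± 0.975 CPM in fasted and 3.89 ± 0.821 CPM in fed livers (SD, n = 3 each). In the box C/D particles, which guide methylation, the methyltransferase Fbl (fibrillarin) was at 17.7, 23.6 and 16.1 CPM in fasted libraries 1, 2 and 3 and at 25.5, 22.8 and 20.8 CPM in fed libraries 1, 2 and 3, with overlap through fasted library 2 (log2 fold change -0.27, adjusted p = 0.43). Its scaffold partners differed in spread. Nop56 held between 20.5 and 23.2 CPM in both groups (95% interval of the log2 fold change -0.31 to 0.29), whereas Nop58 was at 20.9, 24.1 and 24.3 CPM in fasted libraries 1, 2 and 3 and at 14.7, 20.2 and 40.7 CPM in fed libraries 1, 2 and 3. Without fed library 3 the estimate for Nop58 changed sign, from -0.12 with all libraries to 0.41 (adjusted p = 0.219).

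Among 6 factors of the small subunit Wdr43, a component of the large complex that forms on the precursor as it is copied, had the highest estimate. It was at 27.1, 28.3 and 26.7 CPM in fasted libraries 1, 2 and 3 and at 16.4, 16.5 and 24.1 CPM in fed libraries 1, 2 and 3. The fasted libraries lay close together and above all fed libraries, with fed library 3 nearest to them (log2 fold change 0.53, SE 0.18, 1.44-fold, edgeR adjusted p = 0.156). Without fed library 3 the difference was 1.67-fold and passed (adjusted p = 0.0255). Tsr1, a GTPase-like factor of late small subunit assembly, was at 16.0, 23.5 and 21.1 CPM in fasted libraries 1, 2 and 3 and at 19.5, 22.1 and 37.1 CPM in fed libraries 1, 2 and 3. Its groups overlapped, and fed library 3 alone lay above all other libraries (log2 fold change -0.37, adjusted p = 0.467). The estimate for Tsr1 was -0.04 without fed library 3. Heatr1, Utp20 and Rrp12, large helical repeat proteins of the pre-ribosome, had estimates of -0.04, 0.02 and 0.02. Rrp9, a protein of the U3 particle, had an estimate of -0.33, with means of 5.68 ± 1.41 CPM in fasted and 7.19 ± 1.58 CPM in fed livers (SD, n = 3 each). None of these 4 passed, with adjusted p from 0.511 to 0.974.

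For the large subunit the trio of Pes1, Bop1 and Wdr12, which work as a single complex, had estimates of different sign. Bop1 was at 18, 13.2 and 15.9 CPM in fasted libraries 1, 2 and 3 and at 19.9, 18.1 and 24.3 CPM in fed libraries 1, 2 and 3 (log2 fold change -0.4, SE 0.18, edgeR adjusted p = 0.243). Wdr12 was at 10.1, 10.2 and 11.8 CPM in fasted libraries 1, 2 and 3 and at 13.5, 13.3 and 13.6 CPM in fed libraries 1, 2 and 3 (-0.33, SE 0.14, adjusted p = 0.235). Pes1 was at 27.8, 29.9 and 26.4 CPM in fasted libraries 1, 2 and 3 and at 26, 23.4 and 24.3 CPM in fed libraries 1, 2 and 3 (0.19, SE 0.12, adjusted p = 0.408). Groups did not overlap for any of the 3, lower in fasted livers for Bop1 and Wdr12 and higher for Pes1. The same held for 29.0% of all tested genes (15.3% higher and 13.7% lower), and no difference in the trio passed. The difference between the members of the trio was not tested.

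Gnl3 encodes nucleostemin, a nucleolar GTPase. It was at 25.1, 26.3 and 28 CPM in fasted libraries 1, 2 and 3 and at 16.7, 16.4 and 28.1 CPM in fed libraries 1, 2 and 3, so that fed library 3 lay at the level of the fasted libraries. With all libraries it did not pass (1.3-fold, edgeR adjusted p = 0.374), and without fed library 3 it was 1.6-fold higher in fasted livers and passed (adjusted p = 0.0337). Ddx21, an RNA helicase, showed a like layout at 39.7, 58.2 and 44.0 CPM in fasted libraries 1, 2 and 3 and at 31.4, 31.6 and 54.7 CPM in fed libraries 1, 2 and 3 (adjusted p = 0.58). Ftsj3, a methyltransferase of the precursor, averaged 49.8 ± 1.79 CPM in fasted and 45.1 ± 12.7 CPM in fed livers, and Ppan, an assembly factor, 10.4 ± 0.441 and 10.2 ± 2.87 CPM (SD, n = 3 each). Nop2, another methyltransferase, averaged 13.3 ± 0.986 CPM in fasted and 15.2 ± 3.8 CPM in fed livers, and Noc2l, a nucleolar regulator, 26.5 ± 0.803 and 25.2 ± 1.19 CPM (SD, n = 3 each). Estimates of these 4 lay between -0.19 and 0.14, and none passed.

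Myc had the widest interval of the 30 genes. Its transcript was at 4.86, 4.39 and 3.12 CPM in fasted libraries 1, 2 and 3 and at 8.89, 2.05 and 2.77 CPM in fed libraries 1, 2 and 3. Fed library 1, with 126 counts, lay above all other libraries, and the other fed libraries, with 33 counts each, lay below all fasted libraries. The estimated log2 fold change was -0.15 (SE 0.56, edgeR adjusted p = 0.9), and without fed library 1 it turned to 0.75 (adjusted p = 0.278). Of 12 tested genes of the Myc network, the partners and rivals of Myc such as Max and the Mxd proteins, none passed with edgeR or DESeq2. Of all genes 2.52% passed with edgeR and 8.33% with DESeq2. The median log2 fold change of the 12 was -0.08, and 4 had an unadjusted p under 0.05, beside 21.8% of all tested genes. Mlxipl, the carbohydrate-sensing factor ChREBP, was likewise highest in fed library 1, at 86.2, 76.4 and 110 CPM in fasted libraries 1, 2 and 3 and at 304, 165 and 65.0 CPM in fed libraries 1, 2 and 3 (adjusted p = 0.301). Mlxip and Mlxipl, 2 genes of this list, were called by edgeR without fed library 3, 1 higher and 1 lower, where 6.34% of all genes passed.

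Many of the 30 genes shared a layout inside the fed group. Fed library 3 held the highest value of all 6 libraries for 17 of the 30 genes, where it did so for 23.2% of all tested genes, and the highest of the fed libraries for 25 of the 30, against 38.3% of all tested genes. It lay at least 1.5 times above the mean of fed libraries 1 and 2 for 9 of the 30, against 11.6% of all tested genes, by 2.34 times for Nop58, 1.86 for Heatr1, 1.78 for Tsr1 and 1.73 for Ddx21. The 5 genes whose highest fed library was another were Ncl (1.0 times that mean), Pes1 (0.984), Noc2l (0.922), Fbl (0.861) and Myc (0.507), and Wdr12 was all but level (1.01). Summed over the 30 genes the level was 769.5, 900.4 and 833.3 CPM in fasted libraries 1, 2 and 3 and 664.6, 661.3 and 840.3 CPM in fed libraries 1, 2 and 3. Ncl and Npm1 were the largest parts of these sums. This layout was noticed after the values were seen and was not tested. Fed library 3 also had the highest mean of the acute phase genes and the highest Spp1 and Sox9. The other bile duct markers, Krt7, Krt19 and Epcam, had 0 to 14 counts in every library. The part of these genes in the layout was not tested. Without fed library 3 the median log2 fold change of the 30 genes was 0.13, with 21 estimates above 0, while that of all genes was 0.00. Without fed library 1 the median was -0.15 with 10 estimates above 0, and without fed library 2 it was -0.1 with 11 above 0, beside -0.03 and -0.04 for all genes. The 2 of the 30 that passed without fed library 3 were Gnl3 and Wdr43, beside 6.34% of all genes (3.08% higher).

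**Figure D3:**
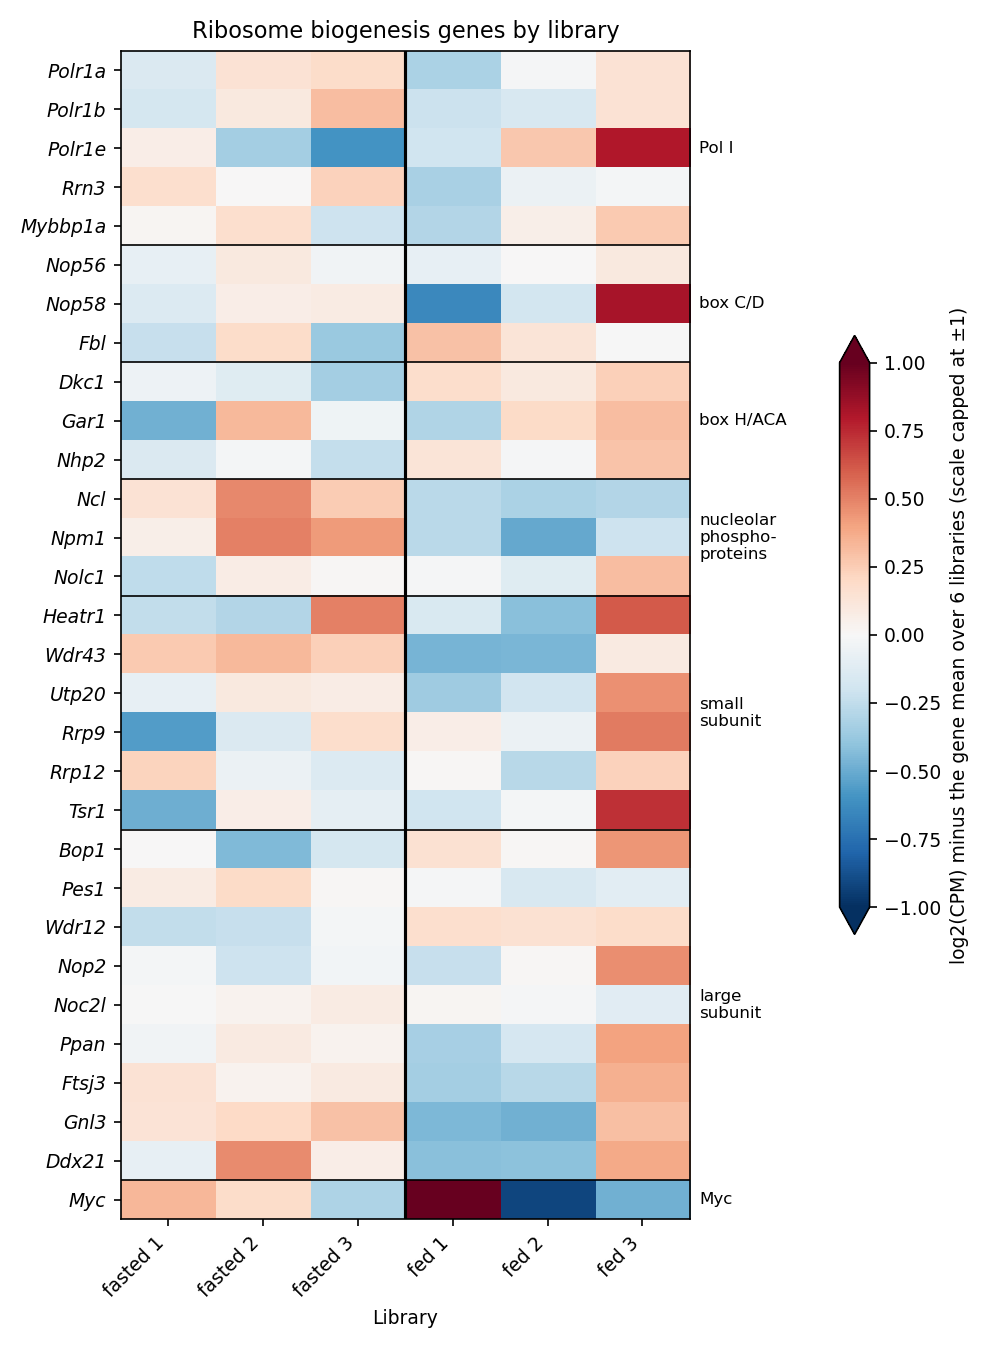
Log2 CPM of each gene minus its own mean over the 6 libraries, fasted libraries left of the line and fed libraries right of it, genes grouped by role, red above and blue below the mean. Fed library 3 is the reddest column for 17 of the 30 genes, and Ncl and Npm1 are red in the fasted and blue in the fed libraries.

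Per transcript length, in the deposited FPKM, Npm1 stood far above the other genes at 88.4 ± 15.3 FPKM in fasted and 56.4 ± 4.48 FPKM in fed livers (SD, n = 3 each). Fbl (16.8 ± 3.34 FPKM in fasted, 21.7 ± 3.81 FPKM in fed livers), Ncl (21.5 ± 2.7 and 15.2 ± 1.24), Ftsj3 (16.6 ± 0.994 and 15.2 ± 3.83) and Nhp2 (13.6 ± 0.818 and 17.3 ± 1.29) came next in the mean over all libraries, and the ranges of these 4 over the libraries overlapped. The order then ran from Nop56 (13.1 ± 1.46 in fasted, 13.6 ± 1.09 in fed livers) down to Polr1a (2.6 ± 0.388 and 2.53 ± 0.233) and Myc (2.2 ± 0.0296 and 2.36 ± 2.09). Utp20, Heatr1 and Rrp12 were the lowest, Rrp12 at 1.39 ± 0.148 FPKM in fasted and 1.46 ± 0.201 FPKM in fed livers.

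**Figure D4:**
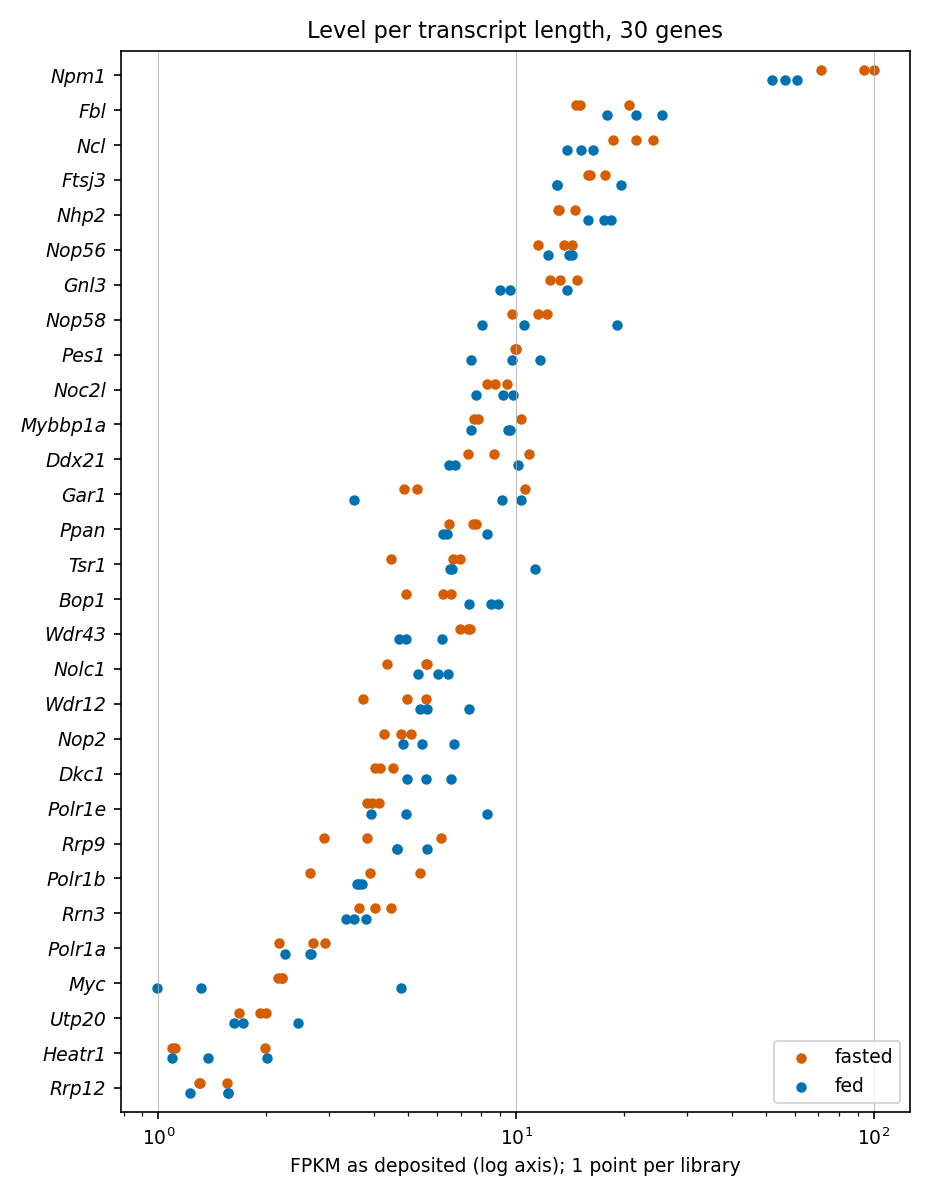
Deposited FPKM of the 30 genes on a log axis, 1 point per library, fasted above fed in each row, ordered by the mean over all libraries. Npm1 is the highest and Rrp12 the lowest, and in most rows the points of both groups overlap.

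Other genes of the pathway were described in the same way. Of 13 other RNA polymerase I genes, 10 other snoRNP genes and 54 other small subunit genes none passed with edgeR, with median log2 fold changes of 0.13, 0.07 and 0.02, where -0.02 was the median of all tested genes. An unadjusted p under 0.05 was found for 3, 1 and 6 of them, beside 21.8% of all tested genes. DESeq2 called 0, 0 and 1 (Imp3, higher), where it called 8.33% of all genes. Imp3 was also called by edgeR without fed library 3, where 6.34% of all genes passed. Ubtf, the architectural factor of the ribosomal DNA, averaged 50.8 ± 4.16 CPM in fasted and 39.7 ± 2.01 CPM in fed livers (SD, n = 3 each; log2 fold change 0.36, edgeR adjusted p = 0.158). Baz2a, a silencer of ribosomal DNA, averaged 47.0 ± 1.59 CPM in fasted and 36.7 ± 3.49 CPM in fed livers (adjusted p = 0.158). The most abundant of the snoRNP and small subunit lists were Nop10, Nhp2l1, Rcl1 and Riok3, with log2 fold changes of -0.19, -0.26, 0.19 and 0.18 and adjusted p from 0.503 to 0.629. Of 49 other large subunit genes 1 rose, none fell, and the median was -0.04, where 2.52% of all tested genes passed. The gene that rose was Gltscr2, also called Nop53, which recruits the exosome to the large subunit precursor. It was at 85.9, 91.2 and 95.1 CPM in fasted libraries 1, 2 and 3 and at 46.1, 40.5 and 41.6 CPM in fed libraries 1, 2 and 3 (log2 fold change 1.08 with an SE of 0.13, 2.12-fold, edgeR adjusted p = 0.0169). Gltscr2 (ENSMUSG00000041560) lies on chromosome 7 at 15936183 to 15946074 of GRCm38, where 1 snoRNA gene on the same strand overlaps it. Nothing in the labels or file headers tells whether reads of that snoRNA were counted with Gltscr2. The call of Gltscr2 was lost without fed library 2 (adjusted p = 0.0959) and without fasted library 1, 2 or 3 (0.0628, 0.0983 and 0.0794). Its log2 fold change there was 1.02 without fed library 2 and 1.13, 1.09 and 1.03 without fasted library 1, 2 or 3. Of all genes 0.111% passed without fed library 2, and 0.277%, 0.0253% and 0.252% without fasted library 1, 2 or 3. The call was also lost with limma on log2(FPKM + 1) with no filter (0.0652), where 0.255% of all genes passed. Gnl2 was called beside Gltscr2 without fed library 3, so that 2 of the list passed, where 6.34% of all genes did.

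Of 16 exosome and nuclease genes 1 fell, none rose, and the median was -0.13, where 2.52% of all tested genes passed. The gene that fell was Eri1, an exonuclease that trims the end of a short ribosomal RNA, at 9.62, 10.1 and 8.74 CPM in fasted libraries 1, 2 and 3 and 15.2, 15.5 and 17.5 CPM in fed libraries 1, 2 and 3 (1.69-fold lower, edgeR adjusted p = 0.0479). Of 22 genes of RNA polymerase III, which makes transfer RNA and the smallest ribosomal RNA, 1 rose and 1 fell with edgeR. DESeq2 called 1 higher and 3 lower (Gtf3c5 and Polr3g beside Polr3k), where it called 8.33% of all genes. Crcp rose 2.06-fold to 37.3 ± 2.98 CPM in fasted livers, against 18.1 ± 1.72 CPM in fed livers (SD, n = 3 each, edgeR adjusted p = 0.0178). Polr3k fell to 9.14 ± 1.41 CPM in fasted livers, against 20.2 ± 3.95 CPM in fed livers (2.21-fold lower, adjusted p = 0.0361). Both encode subunits of that polymerase, and Crcp is also known as a component of the receptor for calcitonin gene-related peptide. The calls of Crcp and Polr3k were lost without fed library 2 (adjusted p = 0.0891 and 0.106) and without each fasted library (0.0829 to 0.0909 and 0.0984 to 0.162). That of Eri1 was lost without fed library 1 or 2 (0.0521 and 0.151) and without each fasted library (0.135 to 0.166), and with no filter on low counts (0.0538). When a library was left out, the log2 fold change ran from 0.97 to 1.11 for Crcp, -1.27 to -1.0 for Polr3k and -0.82 to -0.69 for Eri1. With all libraries it was 1.04, -1.15 and -0.76. Of all genes 4.21% and 0.111% passed without fed library 1 or 2, and 0.0253% to 0.277% without a fasted library. The share was 1.92% with no filter on low counts. With limma on FPKM none of Crcp, Polr3k and Eri1 passed (adjusted p from 0.0717 to 0.124). None of 77 tested cytosolic ribosomal protein genes passed with edgeR, and many of these genes have processed copies that can share reads. The median was 0.16, with 62 estimates above 0 and 15 below, where 51.3% of all tested genes were below 0. Groups did not overlap for 33 genes higher and 3 lower in fasted livers, beside 15.3% and 13.7% of all tested genes. An unadjusted p under 0.05 was found for 6 of these 77, beside 21.8% of all tested genes. DESeq2 called 3 (Rpl36, Rps18 and Rps9), all higher, where 8.33% of all genes passed and 4.4% were higher.

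**Figure D5:**
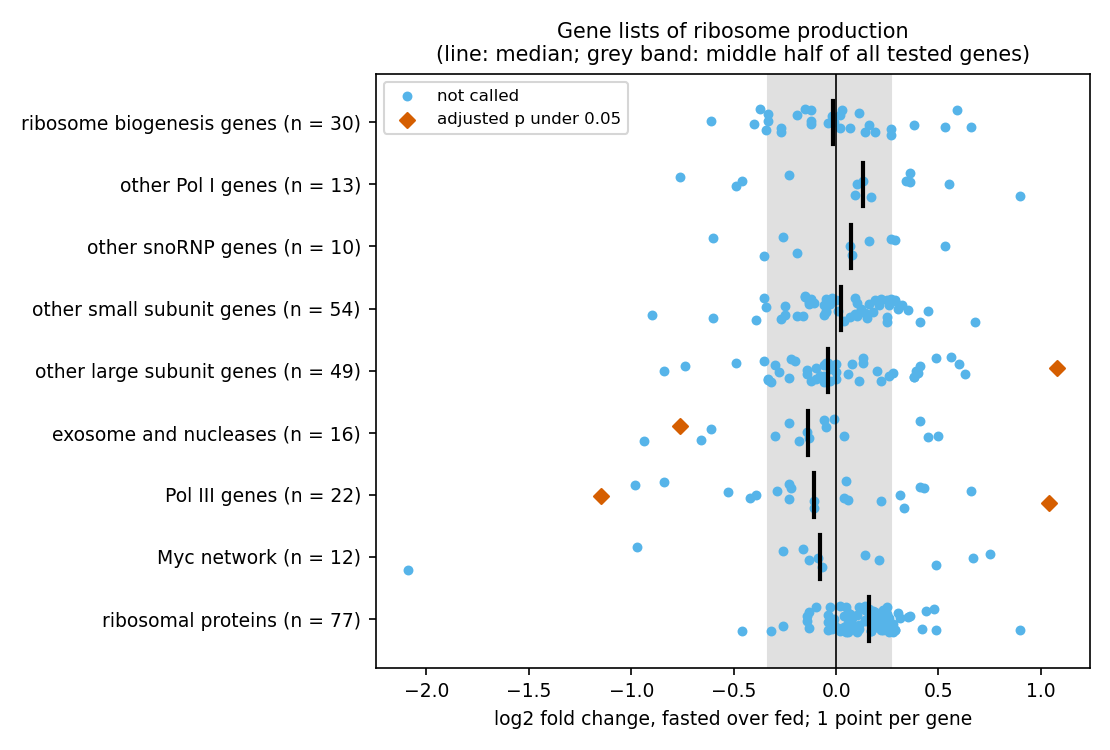
Log2 fold change of fasted over fed livers for the 30 genes and for lists of related genes, 1 point per gene, diamonds at an adjusted p under 0.05, a line at each median and a grey band over the middle range of all tested genes (-0.33 to 0.27). In 3 lists 1 or 2 genes pass, and each list's median lies inside the band.

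Several of the 30 genes carry other RNAs in their introns or overlap a neighbour. In the GENCODE M21 annotation of GRCm38, 8 of the 30 hold a total of 23 snoRNA genes on their own strand, among them 5 in Nop56, 4 in Nop58 and 3 each in Ncl, Wdr43 and Gnl3. Nothing in the labels or file headers tells whether reads of these snoRNAs were counted with their hosts. For 13 of the 30 a coding gene overlaps on the opposite strand, such as Dkc1 with Mpp1, Wdr12 with Carf, Gnl3 with Pbrm1 and Bop1 with Scx and Mroh1, and since no label or header tells if the counting used strand, these counts are uncertain to that extent. No coding gene on the same strand overlapped any of the 30. For 22 of the 30 the GENCODE span lay within the position deposited for that gene. It did not for Nop58, Fbl, Nolc1, Heatr1, Rrp12, Bop1, Wdr12 and Gnl3. Ncl (ENSMUSG00000026234) lies on chromosome 1 at 86344719 to 86359400, Npm1 (ENSMUSG00000057113) on chromosome 11 at 33152287 to 33163206, Wdr43 (ENSMUSG00000041057) on chromosome 17 at 71615895 to 71659031 and Myc (ENSMUSG00000022346) on chromosome 15 at 61985391 to 61990374.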

How the data were processed

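The deposited table holds, per the file headers, an FPKM and a count for each gene and library. Per the submitters' processing notes CASAVA 1.8, TopHat2 and hg19 were used. That build is human, while the gene identifiers are mouse. No source used here gives the counting program, its annotation or its use of strand. Per the labels' protocols ribosomal RNA was removed (Ribo-Zero) before stranded TruSeq library preparation.

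The deposited estimated counts are scaled: each library has a step, 0.83973 to 1.17757, of which 90.49% to 91.03% of its non-zero values are whole multiples (tolerance 0.02). They were divided by that step and rounded to whole numbers, and the 162 lines that share a symbol were summed. Of the 180 values of the 30 genes 160 were whole. Fasted and fed livers were compared with edgeR 4.0.16 in R 4.3.3 (quasi-likelihood test, two-sided, TMM, filterByExpr with a minimum count of 10, no covariate, Benjamini-Hochberg over 11633 genes, threshold 0.05). The SE is the log2 fold change divided by the square root of F. All 30 genes passed the filter.

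The 30 genes and all lists were chosen with earlier results of these data known, and the ribosomal protein list was added after the values were seen. Named are all 30 genes and, in each other list, up to 4 genes that pass or the 2 with the highest mean, and the text may leave some out. Gene positions come from GENCODE M21 (GRCm38) through the Ensembl identifier. Of the list genes, Exosc6 was not analysed here.

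The scripts were tested on simulated data. Alternatives were DESeq2 1.42.0, upper-quartile factors, no filter, robust empirical Bayes, counts as deposited, limma 3.58.1 on log2(FPKM + 1) or log2(FPKM + 0.1) with a mean FPKM of at least 0.1 or no filter, the replicate number as a block, and leaving out each library.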

Additional observations from a re-analysis of the deposited data

How the results depend on the processing

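The count of genes that passed over the whole table was 293. It was 1054 with DESeq2, 138, 137 and 40 with limma on log2(FPKM + 1), log2(FPKM + 0.1) and log2(FPKM + 1) with no filter, and 3 to 754 when a library was left out. Of the 30 ribosome biogenesis genes 2 passed with DESeq2 (Ncl and Npm1) and 0 to 2 when a library was left out (Gnl3 and Wdr43, without fed library 3), and 0 passed in every other setting tried. Upper-quartile factors moved the split of calls to 154 higher and 177 lower, against 164 and 129, and the median of all genes to -0.08.

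Equal replicate numbers showed no clear pairing: the correlations of deviations from the group means were -0.074, 0.183 and -0.126. For unequal numbers they ran from -0.255 to 0.293. With 3 libraries per group these values cannot exclude pairing. With the replicate number as a block 29 genes of the table and 0 of the 30 passed, and Nop58 and Myc changed sign to 0.0041 and 0.1. Under the block Gltscr2, Crcp, Polr3k and Eri1 did not pass (adjusted p of 0.0878, 0.0898, 0.0757 and 0.146).

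Over 15 other settings 450 values of the 30 genes were compared, of which 41 changed sign, in 14 genes. With upper-quartile factors Rrp12, Utp20 and Ppan were at -0.05, -0.05 and -0.04. On FPKM with pseudocount 1, Rrp12, Utp20, Noc2l and Myc were at -0.04, -0.02, -0.01 and 0.1, with the same values with no filter, and with pseudocount 0.1 at -0.06, -0.03, -0.01 and 0.23. When a library was left out, log2 fold changes ran from -0.53 to 0.75 for Myc, -0.42 to 0.41 for Nop58, -0.37 to 0.32 for Heatr1, -0.36 to 0.02 for Nop2, -0.32 to 0.07 for Gar1, -0.24 to 0.02 for Nolc1 and -0.19 to 0.11 for Mybbp1a. They ran from -0.16 to 0.3 for Utp20, -0.14 to 0.15 for Rrp12, -0.14 to 0.28 for Ppan, -0.08 to 0.03 for Nop56, -0.03 to 0.22 for Polr1a and -0.0049 to 0.4 for Ftsj3. The cause was not tested.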
